A study of Bos taurus with 24 samples.

Results

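Cytosolic and mitochondrial chaperone genes were followed in cattle satellite cells, the resident stem cells of muscle, grown with or without fibroblasts. The members were taken by gene symbol: the heat shock protein families HSP90 (HSP90AA1 and HSP90AB1), HSPA, HSPB, HSPD, HSPE and HSPH, every DNAJ gene, the CCT genes with TCP1, and HSF1. The endoplasmic reticulum chaperones HSPA5, DNAJB9, DNAJB11 and DNAJC3 were left out. This gave 67 entries of the 11937 in the count table, for 63 distinct symbols. The symbols CCT8, DNAJA1, DNAJC10 and HSPD1 have 2 entries each, told apart here by chromosome. Not every member belongs to the cytosol or the mitochondria. For example, DNAJC10, DNAJC1, DNAJB12, DNAJB14 and HSPA13 are known to work at or in the endoplasmic reticulum, and this list is not complete.

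Chaperones bind unfolded proteins and help them fold. HSP70 proteins (HSPA) do this in cycles of ATP hydrolysis that J proteins (DNAJ) start and nucleotide exchange factors such as HSPH1 end. HSP90 finishes the folding of kinases and receptors, the ring complex TRiC (TCP1 and the CCT subunits) folds actin and tubulin, and small heat shock proteins (HSPB) hold unfolded proteins without ATP and are abundant in muscle. Mitochondria have an HSP70 of their own (HSPA9) and a chaperonin made of HSPD1 and its lid HSPE1. HSF1 is the transcription factor that switches on many of these genes under heat and other protein stress.

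The satellite cells, of genotype WT, came from the longissimus dorsi muscle and were a mix of 3 lines at passage 3. Coculture placed them in plates with a 0.4 µm pore membrane together with fibroblasts at passage 10, and monoculture had satellite cells alone, all at 8000 cells/cm2 with 20% fetal bovine serum. On day 5 differentiation was started by a medium with 10% horse serum in its place. RNA was sequenced from 6 groups of 4 libraries: coculture in proliferation and 24 h or 72 h after this switch, and monoculture at the same times. Whether monoculture wells held an empty insert is not stated. Nor is it stated that replicates are separate cultures, so p-values measure only the spread between these libraries, which may be technical.

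Library totals were 11.5 to 34.96 M counts, and no gene listed in the table has under 6 counts in any of the 24 libraries. Of 11 satellite cell and muscle markers, 4 are listed (DES, ITGA7, MET and NCAM1), while PAX7, MYF5, MYOD1, MYOG, CDH15, VCAM1 and MYMK are not, so the labelled cell type could not be checked on its defining genes. Of 9 fibroblast markers 6 are listed, and their summed level reached 33011 to 98249 CPM over the 24 libraries. The summed level of CD68, the 1 leukocyte marker of 5 that is listed, was 0.49 to 2.17 CPM, and that of VWF, the 1 endothelial marker of 5, was 1.45 to 4.35 CPM. Levels are in CPM, counts scaled to a common library total with TMM factors, given as mean ± SD over 4 libraries. The lanes in the library names split the groups: all coculture libraries at 72 h and coculture replicates 3 and 4 at 24 h ran in lane 7, and all others in lane 6. A further label code is 1 for monoculture at 24 h and 72 h and 2 for all other groups, and cannot be told apart from culture at these times. Nor can it be told apart from the change between proliferation and 24 h in monoculture. The same holds for any change of the culture difference from proliferation to 24 h or 72 h. In bulk RNA, fewer cells of a type and less RNA per cell cannot be told apart. Files held no transcript lengths, so levels are compared between groups and not between genes.

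The broadest change came with the change of medium. At 24 h most families were lower than in proliferation in both cultures, among them HSPH1, HSPA4, HSPA8, both HSP90 genes, the HSPD1 and HSPE1 chaperonin and most TRiC subunits. In coculture 31 of 67 members fell and 5 rose between proliferation and 24 h, while 22.2% of all genes fell and 21.0% rose. In monoculture 36 fell and 10 rose, against 34.2% and 34.3% of all genes. A gene is called, and said to rise or fall, at an adjusted p under 0.05 in edgeR's quasi-likelihood test with Benjamini-Hochberg adjustment over all 11937 genes. The median log2 change of the members was -0.13 in coculture and -0.23 in monoculture, and that of all genes was within 0.01 of 0 in both. With library sizes alone in place of TMM factors the members still fell, 42 of 67 in coculture and 46 in monoculture. The summed fibroblast markers rose while the members fell. In coculture they averaged 62771 CPM at 24 h, against 40688 CPM in proliferation. In monoculture they averaged 63136 CPM at 24 h, against 34238 CPM in proliferation. Taken singly, 4 of the 6 markers rose and 0 fell in coculture, and 3 rose and 3 fell in monoculture. In proliferation their sum was higher in coculture, with no overlap of libraries, though singly 2 markers were higher and 2 lower. At 72 h it was the reverse, again with no overlap: 82737 to 84751 CPM in coculture and 87117 to 98249 CPM in monoculture. Singly, 2 of the markers were higher in coculture at 72 h and 1 lower. Their part in the chaperone values was not tested. Together the members took 0.951% ± 0.0123, 0.744% ± 0.0293 and 0.72% ± 0.00996 of counts in coculture in proliferation, at 24 h and at 72 h (SD, n = 4), and 1.00% ± 0.01, 0.736% ± 0.024 and 0.705% ± 0.00838 in monoculture.

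**Figure D1:**
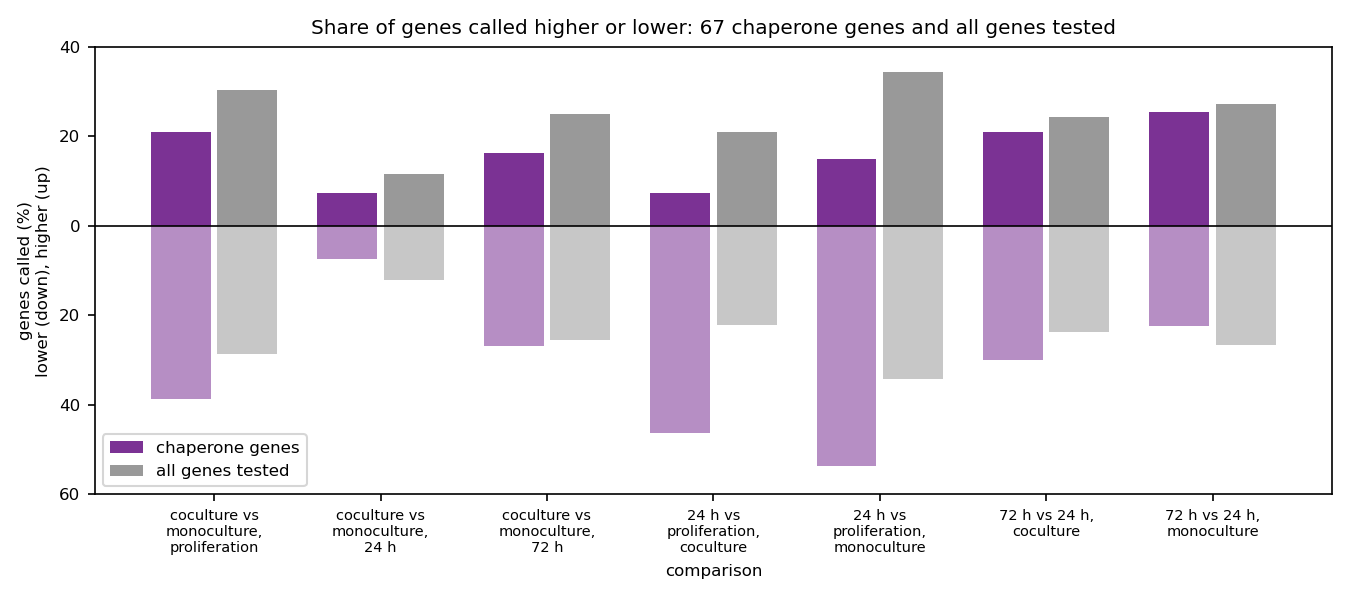
Share of the 67 chaperone genes (purple) and of all 11937 genes tested (grey) called higher (up) or lower (down) in each comparison, in percent, at an adjusted p under 0.05 with TMM scaling. The lower bars of the chaperone genes stand furthest from grey at 24 h against proliferation, with 46.3% in coculture and 53.7% in monoculture; at 72 h, coculture against monoculture, library sizes alone turn the split round.

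HSPH1, the HSP110 that exchanges nucleotide on HSP70, fell more in monoculture than in coculture. In coculture it had 77.7, 82.5, 78.3 and 79.2 CPM at 24 h, against 143, 132, 139.8 and 133 CPM in proliferation. In monoculture it had 75.6, 81.0, 77.2 and 80.4 CPM at 24 h, against 189, 194, 179 and 183 CPM in proliferation. The 24 h libraries of both cultures lay in 1 narrow range, while the proliferation libraries of the cultures did not overlap. The log2 change was -0.78 ± 0.0442 (SE) in coculture and -1.25 ± 0.0442 in monoculture (adjusted p = 7.86e-15 and 3.86e-20), and the changes differed by 0.46 ± 0.0621 (adjusted p = 5.57e-07). HSPA4, the related exchange factor, fell by 0.54 ± 0.0436 in coculture and by 0.72 ± 0.0436 in monoculture on the log2 scale (adjusted p = 1.83e-11 and 6.08e-15). HSPA12A, a distant HSP70 relative, averaged 28 ± 1.51 CPM at 24 h in coculture, against 41.6 ± 5.14 CPM in proliferation, a fall of 0.56 ± 0.0721, and fell by 0.46 ± 0.0724 in monoculture. In monoculture HSPA4L, a further HSP110-type gene, fell by 0.93 ± 0.154 and the mitochondrial DNAJC28 by 0.82 ± 0.101.

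HSPA8, the constitutive HSP70, had 1003, 985, 964 and 991 CPM at 24 h in coculture, against 1354, 1361, 1378 and 1325 CPM in proliferation. In monoculture its libraries held 827, 845, 846 and 847 CPM at 24 h, against 1269, 1263, 1284 and 1276 CPM in proliferation. All 8 libraries at 24 h lay below all 8 in proliferation, with log2 changes of -0.46 ± 0.0353 in coculture and -0.60 ± 0.0353 in monoculture (adjusted p = 7.72e-12 and 4.34e-15). HSP90AA1, the stress-responsive cytosolic HSP90, averaged 667 ± 10.9 CPM at 24 h in coculture, against 849.9 ± 18.6 CPM in proliferation, and 666 ± 20.1 CPM at 24 h in monoculture, against 898 ± 48.2 CPM in proliferation. Its fall was 0.35 ± 0.0409 and 0.43 ± 0.041 on the log2 scale (adjusted p = 3.98e-08 in coculture and 1.29e-10 in monoculture). HSP90AB1, the constitutive form, fell by 0.33 in both cultures.

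In the mitochondrial family of 10, 5 members fell at 24 h in coculture and 6 in monoculture, against 22.2% and 34.2% of all genes. None of the 10 rose in either, against 21.0% and 34.3% of all genes. HSPD1 on chromosome 2 (ENSBTAG00000012586, 86034949 to 86045955 as the table gives it, its build not being stated) had 232, 238, 231 and 234 CPM at 24 h in coculture, against 271, 286, 281 and 277 CPM in proliferation. Its 24 h libraries in monoculture held 217, 211, 204 and 203 CPM, against 303, 307, 298 and 293 CPM in proliferation. The groups did not overlap, and the log2 change was -0.25 ± 0.0372 in coculture and -0.53 ± 0.0372 in monoculture. HSPE1, its lid, lies beside it at 86044713 to 86048062, and the spans overlap, so reads of the overlap may be split between them. HSPE1 fell by 0.42 ± 0.0524 in coculture and by 0.64 ± 0.0523 in monoculture (adjusted p = 1.46e-07 and 5.6e-12). HSPA9, the mitochondrial HSP70, fell by 0.18 ± 0.0334 and 0.27 ± 0.0334.

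TRiC has 9 entries for its 8 subunits, of which all 9 fell at 24 h in coculture and 7 in monoculture, against 22.2% and 34.2% of all genes. Library sizes alone kept the entries lower (9 and 9). The log2 changes of the 8 subunits ran from -0.11 (CCT3, a call lost without most single coculture libraries) to -0.29 (CCT8 on chromosome 1) in coculture and from -0.04 (CCT7) to -0.50 (CCT4) in monoculture. CCT5 and CCT7, the pair not called in monoculture, were at -0.07 ± 0.038 and -0.04 ± 0.0423 there, against -0.28 ± 0.0379 and -0.25 ± 0.0423 in coculture. Their changes differed between the cultures in the direction opposite to that of CCT2, CCT4 and CCT6A. The change of the culture difference from proliferation to 24 h was -0.21 for both CCT5 and CCT7 (adjusted p = 0.00158 and 0.00437), and 0.21, 0.33 and 0.22 for CCT2, CCT4 and CCT6A (adjusted p = 0.00494, 2.15e-05 and 0.0021).

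A few members went the other way at 24 h. HSPA2, an HSP70 best known from the testis, and DNAJB6, a J protein that suppresses aggregation and is mutated in a limb-girdle muscular dystrophy, rose in both cultures, as did DNAJC1, whose call in coculture is lost without proliferation replicate 4 (0.21) or 24 h replicate 4 (0.19). HSPA2 averaged 139.8 ± 4.55 CPM at 24 h in coculture, against 108 ± 3.26 CPM in proliferation, and 133 ± 3.01 CPM at 24 h in monoculture, against 116 ± 5.47 CPM in proliferation. Its log2 rise was 0.37 ± 0.067 in coculture and 0.20 ± 0.0669 in monoculture (adjusted p = 4.68e-05 and 0.0109). The HSPA2 call in monoculture is lost with library sizes alone. DNAJB4, a cytosolic J protein enriched in muscle, rose by 0.44 ± 0.0462 in coculture (adjusted p = 5.87e-09), where it averaged 89.5 ± 2.92 CPM at 24 h against 66.1 ± 1.32 CPM in proliferation, and changed by -0.05 ± 0.0455 in monoculture. Only HSPB1, HSPB7 and HSF1 were called in opposite directions in the cultures at this step, falling in coculture and rising in monoculture. The share of all genes called in opposite directions is not given here. The HSPB1 fall (-0.15 ± 0.0549) is lost without coculture proliferation replicate 2 or coculture 24 h replicate 1, 2 or 3 (-0.10 to -0.14), and its rise (0.28 ± 0.055) with library sizes alone (0.09).

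The comparison of the cultures in proliferation and the change to 24 h in monoculture use the same 4 monoculture libraries, and the values of both are given here side by side and not as separate support. In proliferation, with fibroblasts, 14 members were higher and 26 lower, against 30.3% and 28.7% of all genes, with a median log2 difference of -0.10. Library sizes alone gave 9 and 31. At 24 h 5 were higher and 5 lower (11.5% and 12.2%), and at 72 h 11 were higher and 18 lower (25.1% and 25.4%), with a median of -0.05. At 72 h the balance depends on the scaling, since library sizes alone moved the median of all genes by 0.13 and gave 27 higher and 9 lower. With lane as a covariate 5 were higher and 8 lower at 72 h, where lane separates the cultures completely and is estimated from the 24 h coculture libraries. The shares of members called at 24 h and 72 h are near or below the background, so the culture comparison is described gene by gene. The same shares of all genes are the background for the family counts between cultures that follow.

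**Figure D2:**
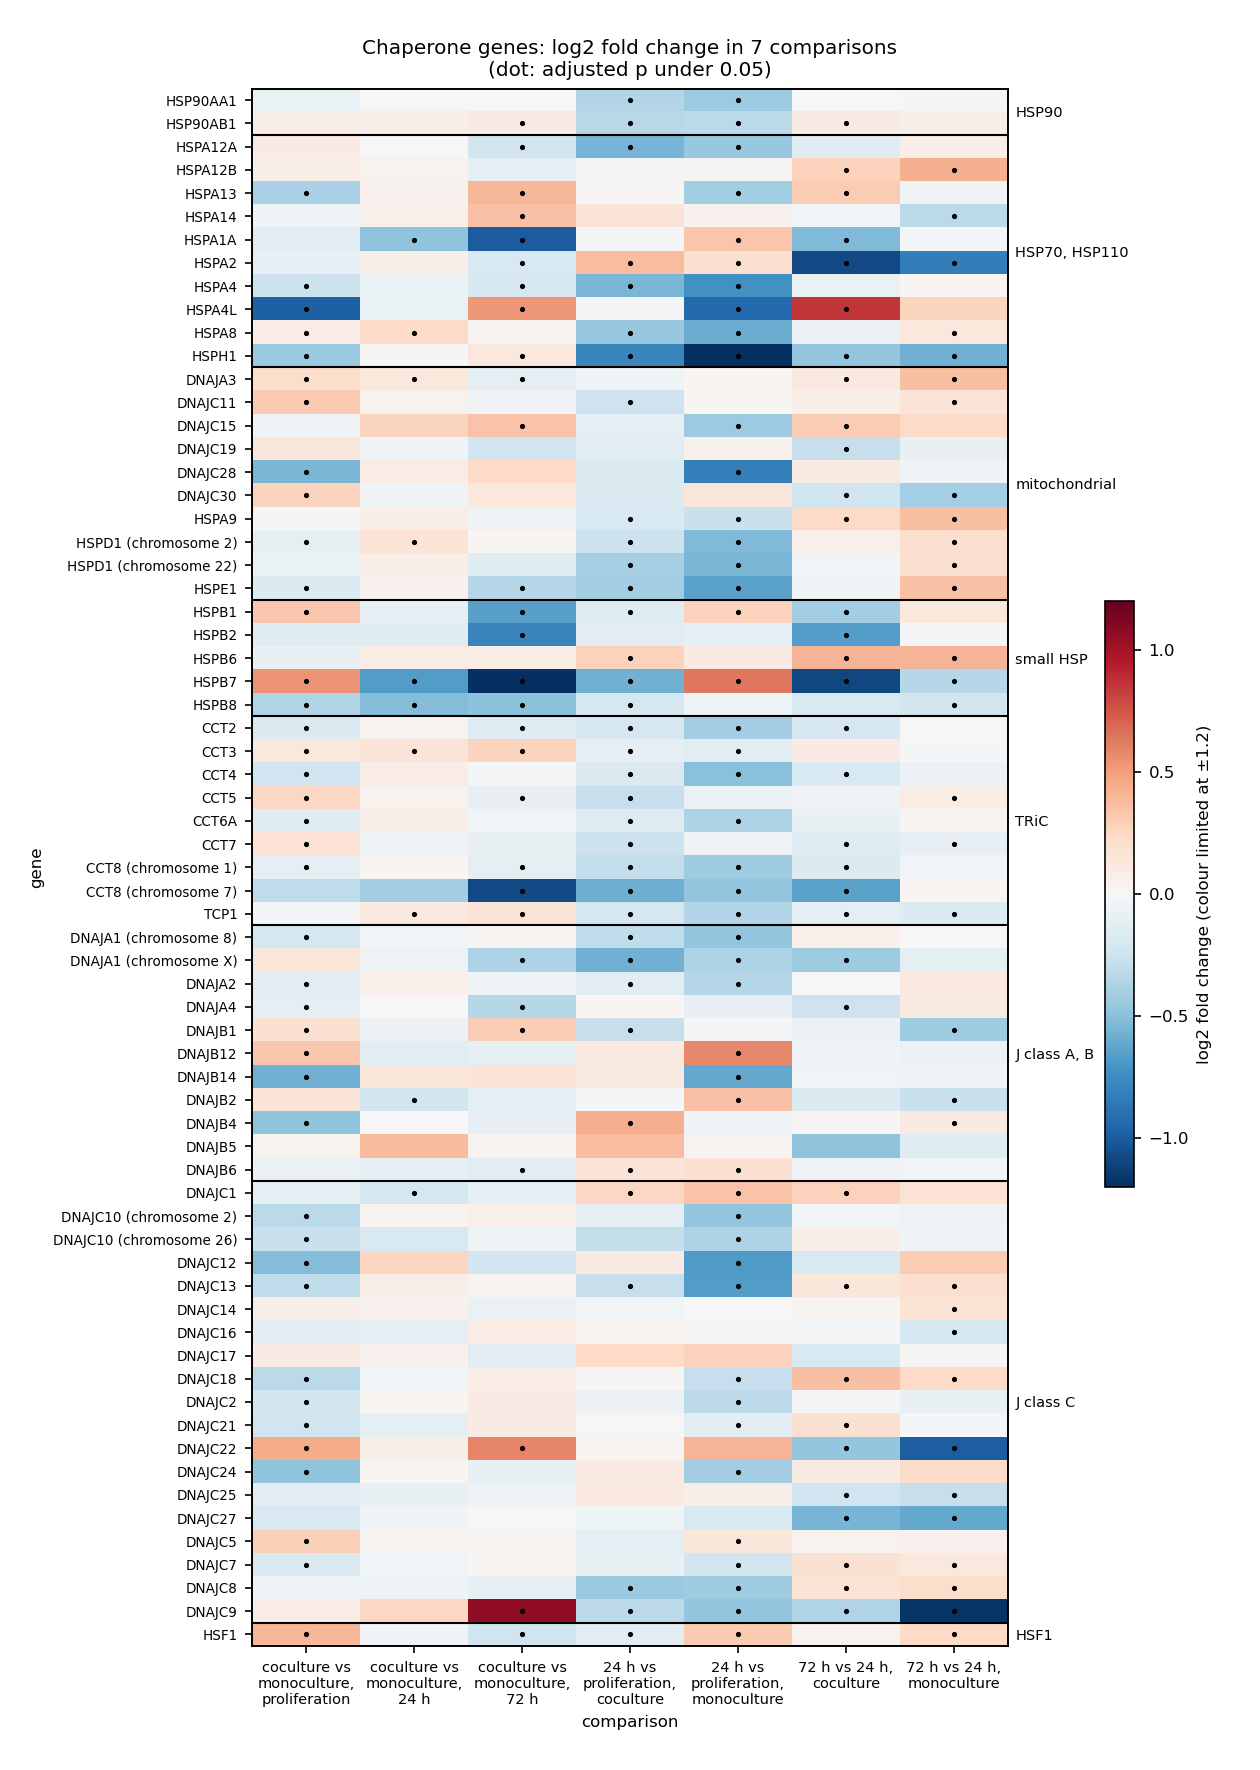
Log2 fold change of each of the 67 chaperone genes (vertical axis, by family) in 7 comparisons (horizontal axis), red for higher and blue for lower in coculture, or at the later time, with a dot at an adjusted p under 0.05 under TMM scaling. HSPB7, CCT8 on chromosome 7 and HSPA1A are the darkest blue at 72 h in coculture against monoculture (-1.42, -1.08 and -1.0), and most families are blue at 24 h against proliferation.

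Small heat shock proteins differed between the cultures mainly at 72 h. At that time 4 of the 5 were lower in coculture (HSPB1, HSPB2, HSPB7 and HSPB8) and none was higher, with a median log2 difference of -0.65, and the same 4 were lower with library sizes alone (median -0.52) and with lane as a covariate. In proliferation 2 were higher (HSPB1 and HSPB7) and 1 lower (HSPB8), and at 24 h 2 were lower (HSPB7 and HSPB8).

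HSPB7 (ENSBTAG00000055045, chromosome 2, 136053981 to 136057316), a heart and muscle protein that binds filamin C, turned round between the times. In proliferation it had 60.7, 64.9, 62.5 and 60.9 CPM in coculture, against 41.0, 41.4, 42.6 and 46.8 CPM in monoculture. At 24 h it had 39.6, 43.8, 40.8 and 42.9 CPM in coculture, against 60.6, 69.8, 68.4 and 67.4 CPM in monoculture. At 72 h it had 22.5, 18.6, 18.8 and 18.7 CPM in coculture, against 46.7, 50.7, 70.6 and 42.4 CPM in monoculture. The cultures did not overlap at any time: coculture was the higher in proliferation and the lower after the change of medium, and monoculture replicate 3 stood above its group at 72 h. The log2 difference was 0.54 ± 0.089 in proliferation, -0.67 ± 0.0888 at 24 h and -1.42 ± 0.0986 at 72 h (adjusted p = 7.11e-06, 1.1e-06 and 4.78e-13), and -1.25 at 72 h without monoculture replicate 3. From proliferation to 72 h the difference moved by -1.96 ± 0.133 (adjusted p = 7.39e-13), the largest shift of any member named.

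HSPB1, or HSP27, which binds actin filaments, followed a like course. In proliferation its libraries held 746, 825, 743 and 719.6 CPM in coculture, against 563, 610.3, 630.0 and 619 CPM in monoculture, which did not overlap. At 24 h the cultures overlapped, with 686 ± 49.4 CPM in coculture and 736 ± 16.2 CPM in monoculture (difference -0.10 ± 0.0549, adjusted p = 0.186). At 72 h it had 545, 489, 509.7 and 504 CPM in coculture, against 825, 751, 884 and 750.2 CPM in monoculture, again with no overlap. The log2 difference was 0.32 ± 0.055 in proliferation and -0.65 ± 0.0552 at 72 h (adjusted p = 9.69e-06 and 3.81e-11), a shift of -0.97 ± 0.0779.

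HSPB8, which works with BAG3 in the clearance of damaged muscle proteins, was the 1 member lower in coculture at all 3 times. Its levels were 22.9 ± 1.41 CPM in coculture and 29.7 ± 1.77 CPM in monoculture in proliferation, 20.0 ± 1.73 CPM in coculture and 28.6 ± 3.24 CPM in monoculture at 24 h, and 17.6 ± 1.41 CPM in coculture and 24.7 ± 3.18 CPM in monoculture at 72 h. The libraries of the cultures did not overlap at any of the times, and the log2 difference was -0.36 ± 0.0807, -0.52 ± 0.0824 and -0.49 ± 0.0864 (adjusted p = 0.000324, 1.71e-05 and 2.1e-05). HSPB2, which binds the myotonic dystrophy kinase, had 3.20, 3.48, 3.26 and 2.51 CPM at 72 h in coculture, against 4.98, 5.75, 4.96 and 5.84 CPM in monoculture, a difference of -0.79 ± 0.155 (adjusted p = 8.64e-05). Its span overlaps that of CRYAB, a small heat shock protein that the symbol rule does not take, and strand use in the counting is not stated, so reads may be shared. CRYAB averaged 35.9 CPM at 72 h in coculture and 114 CPM in monoculture (difference -1.66). HSPB6, or HSP20, did not differ between the cultures beyond the test at any time, with 341 ± 12.7 CPM in coculture and 320.2 ± 30.8 CPM in monoculture at 72 h.

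**Figure D3:**
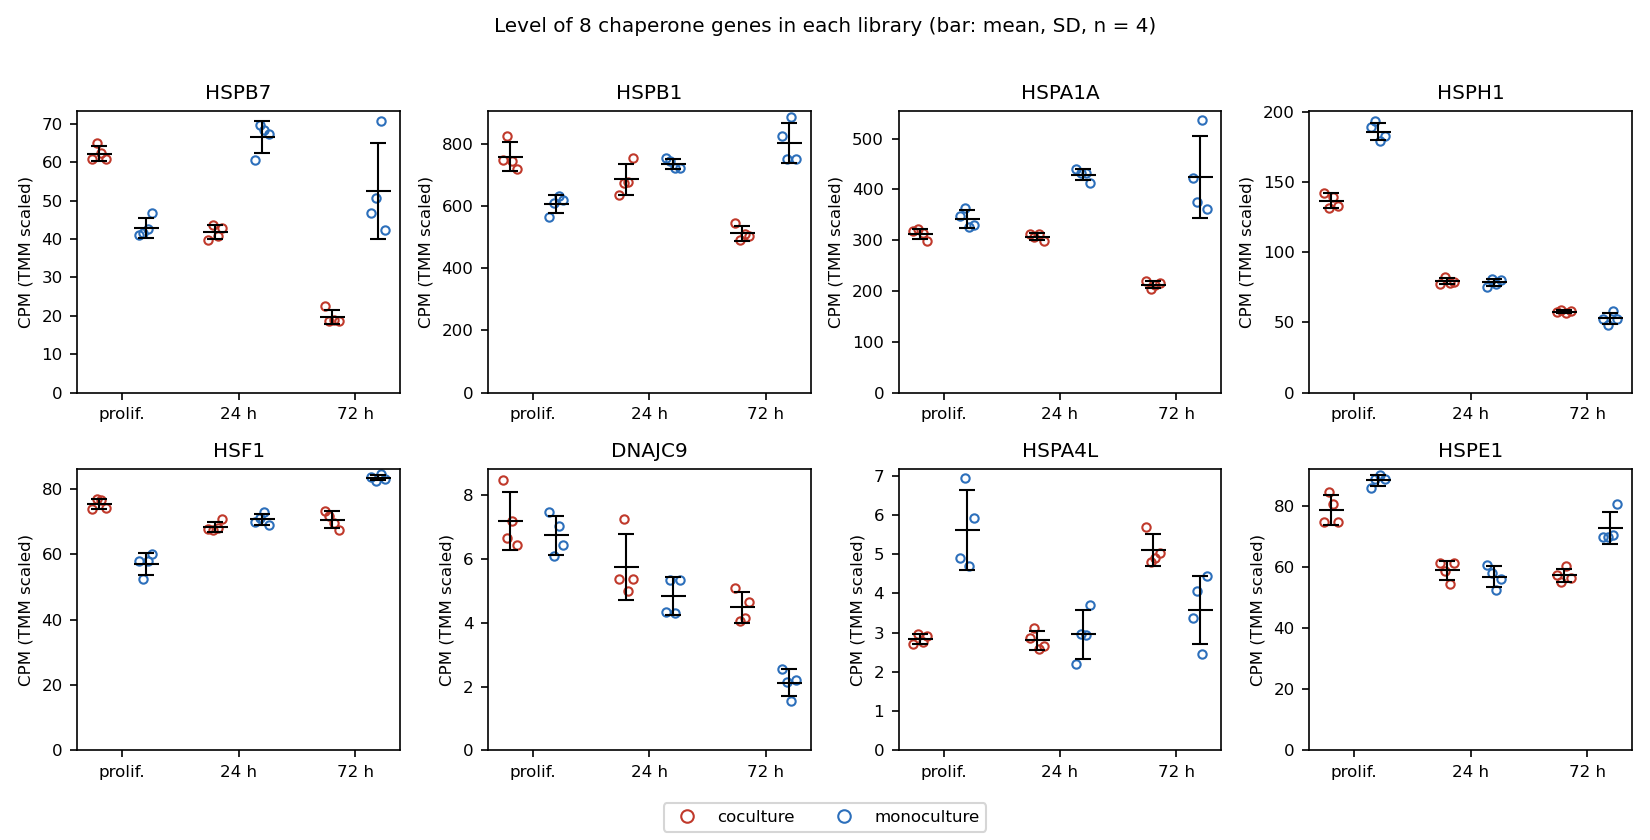
Level of 8 chaperone genes (vertical axes, CPM, TMM scaled, from 0) in each of 24 libraries, coculture in red to the left of monoculture in blue, at the 3 times, with bars for the mean and SD of 4 libraries. HSPB7 and HSPB1 are higher in coculture in proliferation and lower at 72 h, HSPA1A is lower in coculture at 24 h and 72 h, and the cultures cross for HSF1 and HSPA4L; these differences keep their sign with library sizes alone.

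Muscle markers differed between the cultures too. The summed level of the 4 listed ones was 169 to 185, 164 to 191 and 172 to 196 CPM in coculture in proliferation, at 24 h and at 72 h, and 128 to 133, 252 to 271 and 345 to 377 CPM in monoculture. It was higher in coculture in proliferation and higher in monoculture at both later times, without overlap. In coculture this sum changed little over time. The summed level of the 2 listed adipocyte markers of 4, FABP4 and PLIN1, averaged 7.76 CPM in coculture and 12.6 CPM in monoculture at 72 h. VWF was higher in coculture at 72 h (0.80 ± 0.169), at 3.91 CPM in coculture and 2.25 CPM in monoculture. The part of these markers in the small heat shock protein differences was not tested.

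Of the 10 HSP70 and HSP110 genes 1 was higher and 4 lower in coculture in proliferation, 1 and 1 at 24 h, and 4 and 4 at 72 h, where library sizes alone gave 5 and 1 and lane as a covariate 2 and 1. HSPA1A had the lowest difference of the 10 at 24 h and at 72 h. It encodes the heat-inducible HSP70 (ENSBTAG00000025441, chromosome 23, 27519653 to 27522778, overlapping LSM2). In proliferation it averaged 313 ± 10.0 CPM in coculture and 342 ± 17.1 CPM in monoculture, a difference of -0.13 ± 0.0698 (adjusted p = 0.119). At 24 h its libraries held 311, 307, 313 and 297 CPM in coculture, against 439.8, 433, 432 and 413 CPM in monoculture. At 72 h they held 219, 204, 211 and 215 CPM in coculture, against 423, 376, 537 and 361 CPM in monoculture. Coculture was below monoculture in every library at both times, and monoculture replicate 3 was the highest at 72 h. The log2 difference was -0.48 ± 0.0699 at 24 h and -1.0 ± 0.0706 at 72 h (adjusted p = 4.51e-06 and 7.3e-13), or -0.87 at 72 h without that replicate. The difference moved by -0.52 ± 0.0989 between 24 h and 72 h (adjusted p = 0.000233). In monoculture HSPA1A rose by 0.33 ± 0.0697 at 24 h (adjusted p = 0.000124, and 0.14 with library sizes alone, still called), while most HSP70 genes fell.

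HSPA8, the constitutive partner, differed little between the cultures: 0.09 ± 0.0352 in proliferation, 0.23 ± 0.0353 at 24 h and 0.03 ± 0.0352 at 72 h, of which the value at 72 h did not pass (adjusted p = 0.0299, 1.19e-05 and 0.464). The call in proliferation is lost with library sizes alone (0.02) and without monoculture replicate 1 or 2 or coculture replicate 1, 2 or 3 of that time (0.08 to 0.09). Immediate early genes respond within minutes to handling and serum. Of the 22 listed of 26, 18 rose and 2 fell at 72 h against 24 h in coculture (24.4% and 23.8% of all genes). In monoculture 20 of them rose and 1 fell (27.3% and 26.6%). Their summed level was 2309 to 2380 CPM in coculture and 2602 to 3557 CPM in monoculture at 72 h, and 1027 to 1080 CPM and 889 to 973 CPM at 24 h. At 72 h 3 of the 22 were higher in coculture and 12 lower (25.1% and 25.4% of all genes). The part of the immediate early response in the level of HSPA1A was not tested.

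HSPH1, HSPA4 and HSPA4L, the 3 HSP110-type exchange factors, were all lower in coculture in proliferation. HSPA4L had 2.70, 2.96, 2.77 and 2.92 CPM in coculture in proliferation, against 4.91, 6.93, 4.70 and 5.93 CPM in monoculture, and 5.69, 4.81, 4.89 and 5.03 CPM at 72 h in coculture, against 3.38, 4.06, 2.45 and 4.43 CPM in monoculture. The cultures did not overlap at either time and changed places. Its log2 difference was -0.98 ± 0.153 in proliferation and 0.52 ± 0.155 at 72 h (adjusted p = 3.12e-06 and 0.00627), a shift of 1.5 ± 0.218. The call at 72 h is lost with lane as a covariate (0.71) and when the 4 libraries with most nuclear ribosomal RNA are left out (0.41). HSPH1 differed by -0.45 ± 0.0431 in proliferation and by 0.13 ± 0.0466 at 72 h (adjusted p = 7.39e-10 and 0.0217), and the second call is lost with lane as a covariate (0.15) and without monoculture or coculture 72 h replicate 2 (0.09 and 0.12). HSPA4 was lower in coculture in proliferation (-0.26 ± 0.0432) and at 72 h (-0.19 ± 0.0438), and the call at 72 h is lost with library sizes alone (-0.05) and with lane as a covariate (-0.14).

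HSPA13, an HSP70 of the endoplasmic reticulum lumen, turned round in the same direction as HSPA4L. It averaged 34.2 ± 1.72 CPM in coculture and 44.5 ± 2.11 CPM in monoculture in proliferation, and 42.7 ± 2.07 CPM in coculture and 32.4 ± 2.33 CPM in monoculture at 72 h. The difference was -0.38 ± 0.0566 and 0.40 ± 0.0579 (adjusted p = 1.2e-06 and 9.54e-07). HSPA14, an HSP70 that works on ribosomes, was higher in coculture at 72 h (0.35 ± 0.071). HSPA2 was close in the cultures, with -0.18 ± 0.0699 at 72 h (adjusted p = 0.0303). This call is lost with library sizes alone. With lane as a covariate 1 of the 10 HSP70 and HSP110 genes was called lower at 72 h.

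HSF1 (ENSBTAG00000020751, chromosome 14, 614022 to 633745, overlapping BOP1) crossed too. In proliferation it had 73.8, 77.1, 76.6 and 74.1 CPM in coculture, against 58.0, 52.3, 57.9 and 60.0 CPM in monoculture. At 72 h it had 73.3, 71.8, 69.7 and 67.5 CPM in coculture, against 83.5, 82.5, 84.5 and 83.1 CPM in monoculture. Monoculture covered the wider range, below every coculture library in proliferation and above every one at 72 h. The log2 difference was 0.40 ± 0.0406, -0.05 ± 0.0403 and -0.24 ± 0.0402 in order of time (adjusted p = 1.7e-09, 0.452 and 9.19e-06), and at 72 h it was -0.11 and still called with library sizes alone. In monoculture HSF1 rose by 0.31 at 24 h and by 0.24 more at 72 h (0.12 and 0.11 with library sizes alone, both called), while in coculture it fell by 0.14 at 24 h. HSF1 RNA says nothing of the trimerisation and phosphorylation by which the protein is known to be switched on.

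The 2 HSP90 genes barely differed between the cultures. HSP90AA1 was at -0.08 ± 0.0409, 0.00 ± 0.0409 and 0.01 ± 0.0409, none of them called, and HSP90AB1 at 0.08 ± 0.0398, 0.08 ± 0.0398 and 0.10 ± 0.0398, the last called (adjusted p = 0.0346), which is lost with lane as a covariate (0.15) or when any of monoculture replicates 1, 2 and 4 or coculture replicates 2, 3 and 4 at 72 h is left out (0.08 to 0.10). With library sizes alone HSP90AA1 was called lower in proliferation and higher at 72 h (-0.15 and 0.14).

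TRiC subunits act in 1 ring, yet their genes split in proliferation. CCT3, CCT5 and CCT7 were higher in coculture (0.13 ± 0.0445, 0.25 ± 0.0379 and 0.17 ± 0.0422) and CCT2, CCT4, CCT6A and CCT8 on chromosome 1 lower (-0.17 ± 0.0433, -0.24 ± 0.0399, -0.14 ± 0.0406 and -0.11 ± 0.0408), and TCP1 was at -0.02 ± 0.0401. CCT5 had 175, 178, 177 and 172 CPM in coculture, against 148, 152, 145 and 146 CPM in monoculture. CCT4 had 139, 143, 144 and 139 CPM in coculture, against 165, 169, 162 and 169 CPM in monoculture. Neither gene's cultures overlapped. The CCT8 call is lost without monoculture proliferation replicate 2 or 3 (-0.09 and -0.10). At 24 h TCP1 and CCT3 were higher in coculture (0.12 ± 0.0403 and 0.16 ± 0.0446) and no subunit was lower. The TCP1 call is lost with library sizes alone (0.12), with lane as a covariate (0.14), and without monoculture 24 h replicate 3 or 4 or coculture 24 h replicate 1 or 2 (0.10 to 0.12).

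At 72 h TCP1 and CCT3 were higher in coculture (0.16 ± 0.0406 and 0.27 ± 0.0447, adjusted p = 0.00144 and 9.89e-06). CCT2, CCT5 and both CCT8 entries were lower, none of them with lane as a covariate, and CCT5 and CCT8 on chromosome 1 changed sign with library sizes alone (0.03 and 0.02) and the CCT2 call was lost (-0.02). Leaving out monoculture 72 h replicate 3 gave -0.10 for CCT2, which stayed called, and lost the calls of CCT5 (-0.06) and CCT8 on chromosome 1 (-0.09). CCT3, the gamma subunit, was the 1 member higher in coculture at all 3 times: its levels were 208 ± 5.94 CPM in coculture and 189.6 ± 3.26 CPM in monoculture in proliferation, 192 ± 4.5 CPM in coculture and 172 ± 5.51 CPM in monoculture at 24 h, and 205 ± 5.63 CPM in coculture and 171 ± 14.7 CPM in monoculture at 72 h. The call in proliferation is lost with library sizes alone (0.06), and the call at 24 h is lost in lane 6 alone (0.17).

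**Figure D4:**
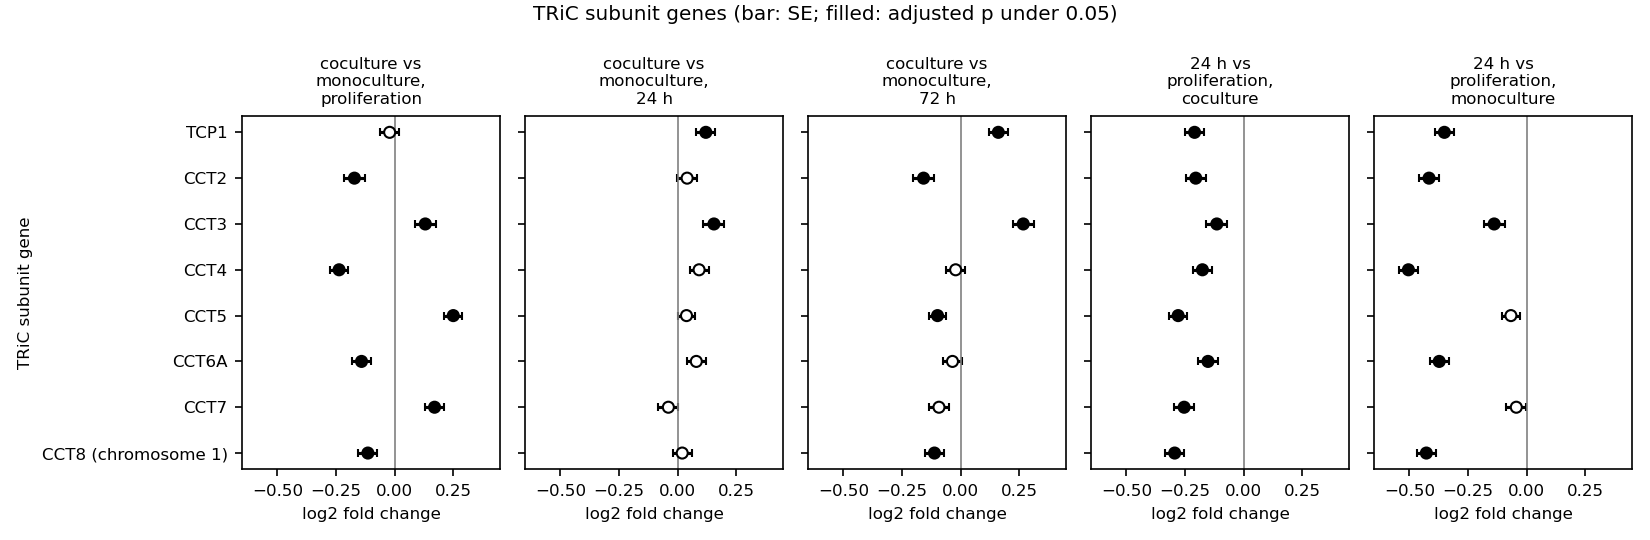
Log2 fold change of the 8 TRiC subunit genes with SE bars in 5 comparisons under TMM scaling, filled where the adjusted p is under 0.05. In proliferation 3 subunits lie right of 0 and 4 called ones left of it, at 24 h against proliferation every subunit lies left of 0 in both cultures, and with library sizes alone CCT5 and CCT8 change sign at 72 h (0.03 and 0.02).

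Actin and tubulin genes, the classic clients of TRiC, were mostly higher in coculture in proliferation: 13 of the 17 listed entries were higher and none lower, with a median of 0.37. Of all genes 30.3% were higher and 28.7% lower in that comparison. At 72 h 7 of the 17 were higher and 4 lower (25.1% and 25.4% of all genes). ACTB averaged 9433 CPM in coculture and 7532 CPM in monoculture in proliferation (difference 0.32), and 6037 CPM in coculture and 7084 CPM in monoculture at 72 h (-0.23). TUBA1B was higher in coculture at all 3 times (0.41, 0.21 and 0.64).

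Of the 10 mitochondrial members 3 were higher and 3 lower in coculture in proliferation, 2 and 0 at 24 h, and 1 and 2 at 72 h, where library sizes alone gave 4 and 1 and lane as a covariate 0 and 1. The counts in proliferation are those of the background (30.3% and 28.7% of all genes). HSPE1 had 57.3, 55.3, 60.3 and 56.4 CPM at 72 h in coculture, against 70.0, 69.8, 70.6 and 80.8 CPM in monoculture, with no overlap (difference -0.34 ± 0.0531, adjusted p = 3.17e-06, and -0.21 with library sizes alone, still called). HSPD1 on chromosome 2 did not differ at 72 h (0.02 ± 0.0372, adjusted p = 0.619), at 244 ± 11.4 CPM in coculture and 239.7 ± 5.51 CPM in monoculture. The log2 ratio of HSPE1 to HSPD1 was -2.09 in coculture and -1.72 in monoculture at 72 h, a ratio chosen after the values were seen and not tested. In proliferation both were lower in coculture (-0.17 ± 0.0513 and -0.11 ± 0.037), the HSPD1 call being lost without monoculture replicate 2 or coculture replicate 1 (-0.09), and HSPD1 was higher at 24 h (0.16 ± 0.0373, adjusted p = 0.00143). HSPA9 differed by -0.01, 0.08 and -0.05 and was not called. DNAJA3, its J protein partner in the matrix, was higher in coculture in proliferation and at 24 h (0.21 ± 0.039 and 0.13 ± 0.039) and lower at 72 h (-0.12 ± 0.0385). The DNAJA3 call at 72 h is lost with library sizes alone, where HSPE1 is the 1 member of the family called lower. The DNAJA3 call at 24 h is lost without monoculture replicate 4 (0.10) or coculture replicate 1 (0.12). DNAJC15, a J protein of the inner membrane import machinery, was higher in coculture at 72 h (0.34 ± 0.101), a call lost with lane as a covariate (0.22). DNAJC28 was lower in proliferation (-0.55 ± 0.0981). DNAJC11, of the complex that shapes the cristae, was higher in proliferation (0.31 ± 0.0452), at 50.2 ± 2.43 CPM in coculture and 40.5 ± 0.432 CPM in monoculture. Mitochondrially encoded coding transcripts took 1.65%, 2.24% and 1.84% of counts in coculture and 2.05%, 3.03% and 2.37% in monoculture in order of time, and their part in these values was not tested.

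Of the 20 other mitochondrial folding and quality control genes, 9 were higher and 7 lower in coculture in proliferation (30.3% and 28.7% of all genes). At 24 h 4 were higher and 2 lower (11.5% and 12.2%). At 72 h 5 were higher and 10 lower (25.1% and 25.4%), or 0 and 2 with lane as a covariate. LONP1, the matrix protease, was higher at all 3 times (0.35, 0.15 and 0.17). TRAP1, the mitochondrial HSP90, was higher in proliferation and lower at 72 h (0.47 and -0.20).

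Class A and B J proteins outside mitochondria, the general partners of HSP70, gave 2 higher and 5 lower of 11 in proliferation, 0 and 1 at 24 h, and 1 and 3 at 72 h, where library sizes alone gave 3 and 1 and lane as a covariate 0 and 1. DNAJB1, the inducible partner of HSPA1A, was higher in coculture in proliferation and at 72 h. It had 43.9, 44.0, 45.5 and 42.2 CPM in coculture in proliferation, against 40.7, 37.3, 38.4 and 38.0 CPM in monoculture, and 33.0, 35.6, 32.1 and 37.0 CPM at 72 h in coculture, against 24.1, 27.0, 33.1 and 28.8 CPM in monoculture. The cultures overlapped at 72 h, through monoculture replicate 3, and not in proliferation. Its difference was 0.19 ± 0.061, -0.07 ± 0.0621 and 0.30 ± 0.0651 (adjusted p = 0.00997, 0.469 and 0.000354), and it was 0.46 at 72 h with the libraries of most ribosomal RNA left out. The call in proliferation is lost with library sizes alone (0.12) and that at 72 h with lane as a covariate (0.23). At 72 h DNAJB1 was the higher and HSPA1A the lower in coculture.

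DNAJA1 on chromosome 8, a class A partner of HSPA8, was lower in coculture in proliferation (-0.21 ± 0.041, adjusted p = 7.36e-05) and close to equal after it (-0.03 ± 0.0416 and 0.03 ± 0.0417). DNAJB4 was lower in proliferation (-0.48 ± 0.0462), at 64.1, 66.8, 66.8 and 66.5 CPM in coculture, against 87.9, 94.7, 94.2 and 92.6 CPM in monoculture, and both cultures averaged 89.5 CPM at 24 h. The membrane J proteins of the endoplasmic reticulum went apart: DNAJB12 was higher in coculture in proliferation (0.32 ± 0.0552) and DNAJB14 lower (-0.58 ± 0.08), and neither was called at the later times. DNAJB2, a neuron-enriched J protein, was lower in coculture at 24 h (-0.22 ± 0.0711), a call lost in lane 6 alone and without monoculture 24 h replicate 1 (-0.23 and -0.16).

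Class C J proteins, a mixed group with special tasks, gave 2 higher and 9 lower of 19 in proliferation (median -0.17), 0 and 1 at 24 h, and 2 and 0 at 72 h, where library sizes alone gave 10 and 0 and lane as a covariate 1 and 0. DNAJC9, a J protein that also carries histones H3 and H4, had 5.10, 4.06, 4.14 and 4.65 CPM at 72 h in coculture, against 2.56, 2.14, 1.55 and 2.22 CPM in monoculture. Coculture was the higher in every library, with a difference of 1.07 ± 0.164 (adjusted p = 2.77e-06), while in proliferation and at 24 h the cultures overlapped. In monoculture it fell by 1.18 ± 0.161 between 24 h and 72 h, and in coculture by 0.36 ± 0.136. Its span overlaps FAM149B1. DNAJC5, the synaptic vesicle J protein, was higher in coculture in proliferation (0.28 ± 0.0497), and DNAJC13, which acts on endosomes, lower (-0.31 ± 0.0475). DNAJC12 was lower as well (-0.52 ± 0.136), at 4.33 ± 0.149 CPM in coculture and 6.16 ± 1.45 CPM in monoculture.

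Between 24 h and 72 h members moved in both directions. In coculture 14 rose and 20 fell (24.4% and 23.8% of all genes), or 15 and 26 with a fit of the compared groups alone, and in monoculture 17 rose and 15 fell (27.3% and 26.6%), which library sizes alone turned to 6 and 29. None was called in opposite directions in the 2 cultures, 8 rose in both and 10 fell in both. The same overlaps over all genes are not given here, so these counts are not read as a trait of the members. HSPA2 had 70.4, 60.5, 67.7 and 65.5 CPM at 72 h in coculture, against 135, 138, 146 and 139.5 CPM at 24 h. In monoculture it had 82.9, 80.0, 57.1 and 79.4 CPM at 72 h, against 131, 133, 137 and 131 CPM at 24 h. Its level was lower at 72 h in every library, by 1.08 ± 0.0687 in coculture and 0.83 ± 0.0685 in monoculture on the log2 scale (adjusted p = 2.7e-14 and 9.16e-12). HSPH1 fell further, by 0.46 ± 0.0455 in coculture and 0.57 ± 0.046 in monoculture. HSPB6 rose by 0.41 in both cultures, to 341 ± 12.7 CPM in coculture and 320.2 ± 30.8 CPM in monoculture, and HSPA9 rose by 0.23 ± 0.0334 in coculture and 0.36 ± 0.0335 in monoculture. DNAJC18 rose by 0.36 ± 0.0537 in coculture and by 0.24 ± 0.0542 in monoculture. DNAJC30, a mitochondrial J protein, fell by 0.24 ± 0.0812 in coculture and 0.41 ± 0.0829 in monoculture. HSPB7 fell by 1.09 ± 0.0993 in coculture and by 0.34 ± 0.0881 in monoculture, where the groups overlapped.

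The second entries of 4 symbols have short spans: 1834 bases for CCT8 on chromosome 7 against 13746 on chromosome 1, and 1479 bases for DNAJA1 on chromosome X against 13160 on chromosome 8. They may share reads with the longer entry and are uncertain. CCT8 on chromosome 7 was lower in coculture at 72 h (-1.08 ± 0.226) and DNAJA1 on chromosome X as well (-0.37 ± 0.128), and neither call holds with lane as a covariate (-0.23 and 0.02), nor the DNAJA1 call without monoculture 72 h replicate 3 (-0.28). Without the 4 second entries the members called were 14 higher and 25 lower in proliferation.

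Of the 40 listed entries of co-chaperones and other folding factors, 14 were higher and 15 lower in coculture in proliferation (30.3% and 28.7% of all genes). At 24 h 4 were higher and 6 lower (11.5% and 12.2%). At 72 h 9 were higher and 16 lower (25.1% and 25.4%), where library sizes alone gave 13 and 5 and lane as a covariate 1 and 5. At 24 h against proliferation 20 fell and 2 rose in coculture (22.2% and 21.0% of all genes). In monoculture 23 fell and 12 rose (34.2% and 34.3%). STIP1, which links HSP70 to HSP90, was higher in proliferation and lower at 72 h in coculture (0.27 and -0.15). BAG3, the partner of HSPB8, was lower at 24 h and 72 h (-0.15 and -0.16). Whether the STIP1 and BAG3 differences at 72 h hold with library sizes alone or with lane as a covariate is not given here. CHORDC1, an HSP90 co-chaperone, was lower in proliferation (-0.57). HSPA5, the endoplasmic reticulum HSP70 that the symbol rule leaves out, was lower in coculture at 72 h (-0.35), at 1597 CPM in coculture and 2032 CPM in monoculture.

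The authors' deposited table for each time called 14 members higher and 30 lower in proliferation, 4 and 4 at 24 h, and 8 and 14 at 72 h. Of the 40, 10 and 29 members called here, 39, 8 and 22 were called in the same direction in the authors' deposited table, and no log2 fold change of a member differed by more than 0.0143.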

How the data were processed

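RNA-seq libraries of bovine satellite cells were analysed from the gene counts the authors deposited, whole numbers of reads per gene and library. Per the submitters' processing notes, which give no versions, the tools were FastQC, STAR, RSEM and DESeq2. Whether the counts are rounded RSEM values, and the genome build, are not stated. Of 36 library columns, 24 carry names in the labels and the other 12 were not used. Per the file headers, 3 further deposited tables hold the authors' log2 fold changes and adjusted p-values, read only where named.

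Counts were scaled by TMM and fitted in R 4.3.3 with edgeR 4.0.16, with 1 mean per group over all 24 libraries (18 residual degrees of freedom). Each of 10 comparisons was tested by the quasi-likelihood F test, adjusted by Benjamini-Hochberg over 11937 genes. The filterByExpr rule removed 0 genes, and the common coefficient of variation was 6.86%. Intervals from counting error were not used, since replicate spread enters the test. The code was tested on simulated data. Alternatives were RLE factors, library sizes alone, DESeq2 1.42.0, a minimum mean of 5 CPM, lane, replicate number as a block, the groups compared only, and leaving libraries out.

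The members, the lists and the rule for named genes were chosen with earlier results of these data known. The rule names, per comparison, the 4 called members that rose most and the 4 that fell most, where the higher group averaged 5 CPM or more, and always HSF1, HSP90AA1, HSP90AB1, HSPA8, HSPA1A, HSPA4, HSPH1, HSPA9, HSPD1, HSPE1, HSPB1, HSPB8, DNAJA1, DNAJB1 and the TRiC subunits. Other genes named were chosen after their values were seen. Members not listed in the table, HSPA1B and HSPA6 among them, were not analysed here.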

Additional observations from a re-analysis of the deposited data

Results flagged for a closer look

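Of 276 groups of 4 libraries, 6 for each of 46 genes, 14 held 1 library far from the other 3, where chance gives about 1 in 20. In coculture in proliferation these were replicate 1 for HSPA13 (36.7 CPM) and for DNAJB4 (64.1 CPM). In coculture at 24 h they were replicate 1 for HSPA12B (10.3 CPM), replicate 3 for CCT5 (140.3 CPM) and replicate 4 for HSF1 (70.8 CPM). In coculture at 72 h they were replicate 1 for HSPB7 (22.5 CPM) and for HSPB6 (359.9 CPM), a library rich in nuclear ribosomal RNA (2.24% of counts). In monoculture at 24 h replicate 1 stood apart for HSPA8 (827 CPM). In monoculture at 72 h replicate 3 stood apart for CCT2 (186 CPM), CCT3 (193 CPM), DNAJB4 (109.5 CPM) and HSPA2 (57.1 CPM), replicate 2 for HSPA9 (625 CPM) and replicate 4 for HSPE1 (80.8 CPM). Replicates 3 and 4 of that group were rich in nuclear ribosomal RNA too (2.14% and 1.76%). Replicate 3 had the lowest TMM factor of the 24 libraries (0.846, against 0.904 to 0.917 in the rest of its group). After scaling its TRiC sum was 1255 CPM, against 1121 to 1142 CPM, while its mitochondrial sum, 1095 CPM, lay within its group. Before scaling its share of counts in members, 0.709%, lay within its group (0.698% to 0.715%). The part of ribosomal RNA and of scaling in these values was not tested.

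The culture difference itself changed between times by edgeR's quasi-likelihood test of the interaction with Benjamini-Hochberg adjustment. Relative to monoculture, coculture gained in 22 members and lost in 12 from proliferation to 24 h (24.3% and 26.2% of all genes), gained in 5 and lost in 11 from 24 h to 72 h (1431 and 1395 of 11937 genes), and gained in 21 and lost in 18 from proliferation to 72 h (31.3% and 31.0%). From proliferation to 24 h the largest log2 changes of the difference were 0.90 for HSPA4L, 0.77 for DNAJC12, 0.72 for DNAJB14 and 0.64 for DNAJC28, and -1.21 for HSPB7, -0.46 for DNAJB12, -0.45 for HSF1 and -0.43 for HSPB1. From 24 h to 72 h they were 0.82 for DNAJC9, 0.36 for DNAJB1, 0.35 for HSPA13 and 0.29 for HSPA14, and -0.75 for HSPB7, -0.65 for HSPB2, -0.55 for HSPB1 and -0.52 for HSPA1A. From proliferation to 72 h they were 1.5 for HSPA4L, 0.98 for DNAJC9, 0.79 for both DNAJC28 and HSPA13, and -1.96 for HSPB7, -0.97 for HSPB1, -0.87 for HSPA1A and -0.65 for HSPB2.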

How the results depend on the processing

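With library sizes alone, which moved the median of all genes by up to 0.21, members called higher and lower were 9 and 31 in proliferation and 27 and 9 at 72 h for coculture against monoculture. Members rising at 24 h were 4 in monoculture and 3 in coculture, and 6 rose and 29 fell at 72 h against 24 h in monoculture. The change of the culture difference gave 13 and 5 from 24 h to 72 h and 36 and 6 from proliferation to 72 h. These values reversed with library sizes alone: at 72 h between cultures CCT5 (0.035) and CCT8 on chromosome 1 (0.021); at 72 h against 24 h in monoculture HSPA4 (-0.10), HSPA8 (-0.00631) and CCT5 (-0.040); for the change of the culture difference HSPA9 from 24 h to 72 h (0.0013), and HSPA8 (0.15), HSPA9 (0.16) and HSPE1 (0.025) from proliferation to 72 h. With lane as a covariate 5 and 8 members were called between cultures at 72 h, 12 fell at 72 h against 24 h in coculture, and 10 fell in the change from proliferation to 72 h; DNAJA1 on chromosome X (0.024 between cultures at 72 h) and CCT8 on chromosome 7 (0.076 in that change) reversed. Leaving out the 4 libraries with most nuclear ribosomal RNA, 11 members rose at 72 h against 24 h in monoculture. With the groups compared only, 3 rose in the change of the difference from 24 h to 72 h. In lane 6 alone 2 and 3 were called between cultures at 24 h. Leaving out 1 library at a time gave 3 to 6 higher (3 without monoculture 24 h replicate 4) and 3 to 7 lower (3 without monoculture 24 h replicate 1) between cultures at 24 h, and 3 to 6 rising in the change from 24 h to 72 h (3 without coculture 24 h replicate 4). The cause was not tested.

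Same-numbered libraries did not deviate together (1 of 28 correlations over 0.1, -0.1417 to 0.1195, and 4 best with their own number). This cannot exclude that the numbers mark paired cultures, which the labels do not state. With the replicate block 14 and 26, 5 and 4, and 11 and 18 members were called between cultures in order of time. Of 305 values of named genes, 239 kept direction and call with library sizes alone, 275 with lane as a covariate, 280 with the ribosomal RNA-rich libraries left out, 286 with the groups compared only, 296 with DESeq2, 299 with the block and 302 with RLE factors. The spread of 4 libraries limits calls of small differences, and low genes such as HSPA4L and DNAJC9 rest on few counts.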
